A study of Mus musculus with 16 samples.

Results

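MEK inhibition of mouse embryonic stem cells in which the ERK pathway had been switched on for 4 h was compared with the same cells at 4 h. The comparison used 8 of the 16 libraries of the series, the 4 named rev and the 4 named 4h, and covered every gene expressed above a low-count filter, 12215 of 52636 gene identifiers. The cells were the line CRAFR26, which carries a c-RAF construct that becomes active when 4-hydroxytamoxifen is added. Both groups had been kept for 48 h with 250 nM of the FGF receptor inhibitor PD17 (PD173074), which replaced the MEK inhibitor they are routinely grown in, and were then given 250 nM 4-hydroxytamoxifen for 4 h. The 4h cells were collected at that point, and the rev cells were collected after a further 2 h with a MEK inhibitor, whose identity and dose in this step the labels do not give. Whether 4-hydroxytamoxifen and PD17 stayed in the medium during those 2 h is not stated either. Each group held 2 cultures of clone 4 and 2 of clone 8, so that each result rests on 2 clones of a single line. The other 8 libraries, uninduced cells (0h) and cells after 2 h of induction (2h), entered the estimate of the spread and gave a measure of induction that shares no library with rev or 4h. No culture was kept for the further 2 h without the inhibitor, so the effect of the inhibitor and that of 2 more hours of culture cannot be told apart.

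ERK is the last kinase of a relay in which RAS activates RAF, RAF activates MEK and MEK activates ERK. Active ERK switches on a set of immediate-early transcription factors and, with them, inhibitors that damp the same relay: Sprouty and Spred proteins act near RAS and RAF, and dual-specificity phosphatases remove the activating phosphates from ERK. In mouse embryonic stem cells FGF4 made by the cells themselves is the main source of ERK activity, and blocking MEK holds the cells in the naive state that precedes lineage commitment.

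The 4h libraries held 4188763 to 7008546 counts and the rev libraries 4794652 to 8180433. The 8 most abundant gene models, mitochondrial ribosomal RNA among them, took 42.0% to 62.4% of the counts at 4h and 55.1% to 80.4% in rev. The difference was 11.8 percentage points, in clone 4 as in clone 8, with p = 0.171 in a two-sided exact permutation test over 70 splits and 0.0556 within clone, the smallest that the 36 splits within clone can give. It was 6.95 points without clone 8 replicate 2 of rev and 7.75 points without clone 4 replicate 1 of 4h. The rev library of clone 8 replicate 2 stood apart, with 940289 counts outside these models and a TMM factor of 0.463, and without it 919 genes were called higher and 1021 lower in place of the 969 and 1030 given below. Scaled by library size alone the median log2 fold change of all genes was -0.41, against 0.01 under TMM, and 57 genes were called higher and 1671 lower, so that 3.30% of the calls were higher against 48.5% under TMM. Each direction below is relative to the median gene, and 29 of the 135 named calls were lost and 8 changed sign under that scaling. All 7 markers of naive stem cells were expressed, with a summed level of 1511 to 1936 CPM at 4h and 1679 to 2141 CPM in rev. Short sets of 5 or 6 defining markers of trophectoderm, fibroblasts, neural and mesoderm progeny and blood cells each summed to at most 12.6 CPM in any of the 8 libraries, with Dcn, Postn, Neurog2, Hba-a1 and Lyz2 at 0 in all of them.

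After MEK inhibition, 11 of 19 tested feedback inhibitors of the ERK pathway and 13 of 22 immediate-early factors were lower than at 4h. Naive pluripotency genes changed in both directions, with Fgf4 among the higher and Pou5f1 and Sox2 among the lower. In the edgeR quasi-likelihood test with clone as a covariate, 969 genes (7.93% of those tested) passed an adjusted p of 0.05 with more RNA in rev and 1030 (8.43%) with less, which makes 1999 genes (16.4%) in all. Without clone 4 replicate 1 of 4h, 644 genes were called higher. The median log2 fold change was 0.57 among the higher and -0.45 among the lower genes, so that most changes were under 2-fold. At least 2-fold changes were met by 188 higher genes (1.54%) and 140 lower genes (1.15%). The extremes were on the lower side: 26 genes fell at least 4-fold and 9 rose as much. Over all tested genes, the 4 rev libraries all lay above the 4 libraries of 4h in 792 (6.48%) and all below them in 830 (6.79%), and 528 of the genes called higher and 603 of those called lower were so separated. In RNA from whole cultures, fewer expressing cells and less RNA per cell cannot be told apart.

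The largest fall was that of Spry4 (ENSMUSG00000024427, GRCm38 chromosome 18, 38586247 to 38601415), a Sprouty protein that restrains RAS and RAF. Values of 4 libraries are given as CPM, the usual depth-scaled read count, here with TMM factors, in the order clone 4 replicates 1 and 2, then clone 8 replicates 1 and 2. Spry4 stood at 254, 287, 219 and 220 CPM at 4h and at 4.69, 3.26, 1.82 and 2.70 CPM in rev. Every rev library was far under every 4h library, and the fall was 73.4-fold (log2 fold change -6.20, SE 0.14, adjusted p 1.15e-27). Its level before induction had been 0.998 ± 0.557 CPM (SD, n = 4). Dusp6 (ENSMUSG00000019960, chromosome 10, 99263231 to 99267489), the cytoplasmic phosphatase that switches ERK off, read 67.4, 59.9, 50.5 and 42.9 CPM at 4h and 1.71, 1.74, 0.663 and 2.25 CPM in rev. This was a 37.9-fold fall with no overlap of the groups (log2 fold change -5.24, SE 0.17, adjusted p 3.99e-22). Dusp4, a nuclear phosphatase of the same family, fell less, from 17.99 ± 4.66 to 3.69 ± 0.976 CPM (log2 fold change -2.28, SE 0.17, adjusted p 1.67e-12).

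**Figure D1:**
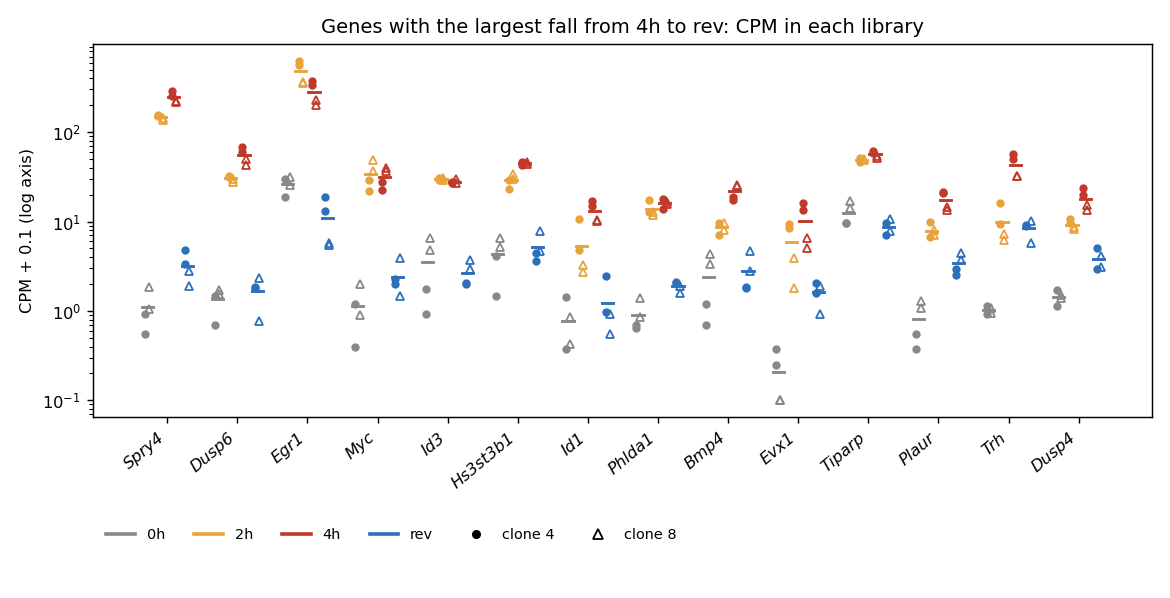
CPM plus 0.1 on a log axis in each library for the 14 protein-coding genes with the largest fall from 4h to rev among those with a mean of at least 5 CPM, with filled circles for clone 4, open triangles for clone 8 and a bar at the mean of each group. In each gene the 4 rev libraries lie below the 4 libraries of 4h, and 2h and 0h are shown beside them.

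Among the transcription factors, Egr1 (ENSMUSG00000038418, chromosome 18), an immediate-early zinc finger factor, had 336, 368, 202 and 229 CPM at 4h and 13.1, 18.7, 5.63 and 5.41 CPM in rev. Clone 4 was above clone 8 in both groups, and the fall was 26.03-fold (log2 fold change -4.70, SE 0.18, adjusted p 1.67e-20). Myc (ENSMUSG00000022346, chromosome 15), the growth regulator whose mRNA and protein turn over within minutes, had 22.2, 27.2, 39.1 and 36.3 CPM at 4h and 1.92, 2.17, 3.81 and 1.35 CPM in rev. Here clone 8 was the higher of the clones at 4h, and the groups did not overlap (log2 fold change -3.60, SE 0.19, adjusted p 3.45e-16). Evx1, a homeobox gene of the primitive streak, fell from 10.2 ± 5.26 to 1.52 ± 0.499 CPM (log2 fold change -2.95, SE 0.26, adjusted p 2.22e-10). Its antisense neighbour Evx1os also fell, at lower counts (log2 fold change -2.77, adjusted p 3.24e-05). The overlapping exons of these genes cannot be separated here, since it is not stated whether reads were counted by strand.

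Some genes of BMP signalling also fell. Id3, which blocks basic helix-loop-helix factors and is a textbook target of BMP and SMAD proteins, stood at 27.4, 26.6, 29.4 and 27.1 CPM at 4h and at 1.92, 1.96, 2.82 and 3.61 CPM in rev. The 4 libraries of 4h were close to each other, and all of rev lay under them (log2 fold change -3.54, SE 0.22, adjusted p 2.63e-14). Id1 fell from 12.9 ± 3.35 to 1.12 ± 0.836 CPM (log2 fold change -3.27, SE 0.26, adjusted p 1.29e-11), and the ligand Bmp4, which has an antisense overlap, from 21.7 ± 4.35 to 2.70 ± 1.38 CPM (log2 fold change -2.99, SE 0.21, adjusted p 7.14e-13). Smad7, an inhibitory SMAD, fell from 120 ± 14.2 to 55.0 ± 9.70 CPM (log2 fold change -1.15, SE 0.08, adjusted p 7.72e-13). The co-receptor Rgma went the other way, as described with the rises. Of 14 tested genes of the Id and BMP-SMAD list, 4 (28.6%) were lower and 2 (14.3%) higher, against 8.43% and 7.93% of all tested genes. The median was -0.05, against 0.01 over all tested genes. Beside Rgma the higher gene was Smad6, a call lost with 6 of the 8 libraries left out in turn (adjusted p of up to 0.178). DESeq2 called 1 of the list higher.

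The remaining large falls belonged to genes of varied roles. Hs3st3b1, which adds sulfate to heparan sulfate chains, went from 43.1, 46.7, 46.0 and 43.4 CPM to 4.37, 3.48, 4.64 and 7.66 CPM (log2 fold change -3.27, SE 0.16, adjusted p 2.98e-17), with a narrow spread at 4h. Tiparp, an ADP-ribosyltransferase, fell from 56.2 ± 4.72 to 8.63 ± 1.61 CPM (log2 fold change -2.65, SE 0.13, adjusted p 2.81e-17). Trh, the precursor of thyrotropin-releasing hormone, fell from 43.0 ± 12.5 to 8.38 ± 1.88 CPM (log2 fold change -2.45, SE 0.13, adjusted p 6.57e-16), and all 4 of its rev libraries, at 5.63 to 9.92 CPM, stayed above the 0h mean of 0.920 CPM. Phlda1 (log2 fold change -3.10, with an antisense overlap), and Plaur, the receptor of the protease urokinase (log2 fold change -2.50), complete the 14 largest falls among protein-coding genes with a mean of at least 5 CPM over the 8 libraries. Snai3, a Snail-family repressor (log2 fold change -2.24, adjusted p 2.11e-11), and Ptgs2, the inducible cyclooxygenase (log2 fold change -2.57, adjusted p 4.02e-05, at most 4 counts in any rev library), also fell at least 4-fold.

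The feedback inhibitors were examined as a list of 21 genes, of which 19 passed the expression filter. Of the 19, 11 (57.9%) were lower in rev and 2 (10.5%) higher, against 8.43% and 7.93% of all tested genes, 6 were not called, and their median log2 fold change was -0.65, against 0.01 over all tested genes. All 11 lower genes were among the 13 members that had been higher at 2h than at 0h. Of all genes higher at 2h, 28.0% were lower in rev. Beside Spry4, Dusp6 and Dusp4, the nuclear phosphatase Dusp2 fell from 5.57 ± 2.80 to 0.721 ± 0.297 CPM (log2 fold change -2.90). Spry2 fell from 60.9 ± 8.18 to 21.1 ± 3.23 CPM (log2 fold change -1.50), and Spry1, with an antisense overlap, from 11.3 ± 1.94 to 3.89 ± 0.935 CPM (log2 fold change -1.58). Errfi1, an inhibitor of the EGF receptor, fell from 34.2 ± 6.49 to 14.3 ± 1.81 CPM (log2 fold change -1.29). Spred1, which restrains RAS, fell by 0.71 on the log2 scale, and the RAS-inactivating Rasa2 by 0.51. The call of Rasa2 was lost without clone 4 replicate 1 or 2 of rev or clone 4 replicate 2 of 4h, with an adjusted p of up to 0.110. Spred2 was at 53.6 ± 4.70 CPM at 4h and 50.4 ± 7.46 in rev (log2 fold change -0.13, adjusted p 0.329). Dusp14, a small phosphatase, rose from 9.02, 10.4, 22.2 and 22.9 CPM to 14.1, 19.3, 38.6 and 39.2 CPM (log2 fold change 0.76, adjusted p 9.76e-05). Its groups overlapped, since clone 8 at 4h lay above clone 4 in rev, and the call was not kept with library size alone. Lrig1, which promotes loss of EGF-family receptors and has an antisense overlap, was called higher under TMM (log2 fold change 0.36) and had a log2 fold change of -0.07 with library size alone.

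The region before the start site is shown for 4 of the genes that fell, because each holds an exact match to a motif that ERK-regulated factors are known to bind. The sequences are the 120 bases before the RefSeq start site on the plus strand of GRCm38.p6, with matches in capitals. Dusp5 (chr19:53529025-53529144) holds adjacent matches to the CArG box, which serum response factor binds, with first letters 82 and 72 bases before the start. Epha2 (chr4:141301101-141301220) and Errfi1 (chr4:150854950-150855069) hold the cyclic AMP response element TGACGTCA, 33 and 51 bases before. Plaur (chr7:24462363-24462482) holds an AP-1 site of the form TGANTCA, 69 bases before.
Dusp5: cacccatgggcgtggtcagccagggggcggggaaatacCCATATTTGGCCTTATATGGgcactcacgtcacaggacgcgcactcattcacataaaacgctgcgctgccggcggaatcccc
Epha2: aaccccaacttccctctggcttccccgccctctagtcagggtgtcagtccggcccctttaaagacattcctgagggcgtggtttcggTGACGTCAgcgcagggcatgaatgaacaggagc
Errfi1: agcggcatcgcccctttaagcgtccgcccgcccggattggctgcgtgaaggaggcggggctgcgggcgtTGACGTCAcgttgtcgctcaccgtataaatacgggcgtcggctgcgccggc
Plaur: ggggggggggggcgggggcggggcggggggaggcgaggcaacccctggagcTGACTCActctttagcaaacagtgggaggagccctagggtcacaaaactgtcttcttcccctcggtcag
Searched on both strands, the CArG box occurred in 1.63%, TGACGTCA in 1.79% and TGANTCA in 7.81% of the 32851 promoters of 300 bases in the RefSeq table. The ETS site CCGGAAGT and the EGR site GCGTGGGCG were searched too. They were held by 3.89% and 0.612% of all promoters and by 9.67% and 1.51% of tested genes with a promoter in the table. Both occurred in the promoters of 0 of the 79 genes that fell at least 2-fold. Of the 105 genes that rose as much, 0 held the ETS site and 1 the EGR site. The absence is thus not particular to the genes that fell, and says only that these letters are not in those windows. A match is a description of letters and not evidence of binding. The 4 genes shown were picked for their match, and genes that rose hold such letters too, with TGACGTCA before Pnpla3, Atg16l2 and Hhip and TGANTCA before Xaf1. Counted per gene over the 9021 tested protein-coding genes with a promoter in the table, the CArG box was found in 1.51%, TGACGTCA in 3.70% and TGANTCA in 5.59%. In the same order, they occurred in 3 (3.80%), 2 (2.53%) and 7 (8.86%) of the 79 genes that fell at least 2-fold. Of the 105 that rose as much, 1 (0.952%), 3 (2.86%) and 5 (4.76%) held them. Differences in these shares were not tested, since 79 of the 121 protein-coding genes that fell at least 2-fold had a promoter in the table. In these libraries Dusp5 fell from 26.9 ± 11.3 to 9.80 ± 3.81 CPM (log2 fold change -1.58, with an antisense overlap). Its clone 8 replicate 2 library at 4h, at 14.2 CPM, lay below its clone 4 replicate 2 library of rev, at 15.4 CPM.

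Most of the immediate-early transcription factors were lower in rev as well. Of 27 listed genes 22 were tested, and in the edgeR quasi-likelihood test 13 (59.1%) were lower and 0 higher, against 8.43% and 7.93% of all tested genes, and 9 were not called, with a median of -0.58. At an unadjusted p under 0.05, 15 were lower and 0 higher, and DESeq2 called 12 lower and 0 higher. Egr3 fell from 9.35, 14.2, 3.80 and 5.53 CPM to 1.07, 1.30, 0.663 and 0 CPM (log2 fold change -3.31, adjusted p 3.43e-10), and Fos from 3.94 ± 0.860 to 0.767 ± 0.428 CPM (log2 fold change -2.56, adjusted p 9.80e-06). Junb, an AP-1 subunit with an antisense overlap, fell from 25.7 CPM to 11.9 CPM on average (log2 fold change -1.103, SE 0.11, adjusted p 2.81e-09). Ier2 fell from 86.8 ± 2.85 to 53.4 ± 13.3 CPM, with 40.5 and 43.4 CPM in clone 4 and 63.5 and 66.3 CPM in clone 8. Jun was at 2.66 ± 0.521 CPM at 4h and 1.38 ± 0.837 in rev and did not pass the test (adjusted p 0.0766). Srf, the serum response factor, had 42.3 ± 4.51 CPM at 4h and 39.9 ± 2.35 in rev (log2 fold change -0.10, adjusted p 0.458), although it had been higher at 2h than at 0h (log2 fold change 0.98). Nab2, which represses Egr factors and had risen at 2h by a log2 fold change of 2.80, fell by 0.37 in rev. That call was lost without clone 4 replicate 1 of 4h (adjusted p 0.0883) or of rev (adjusted p 0.0843).

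**Figure D2:**
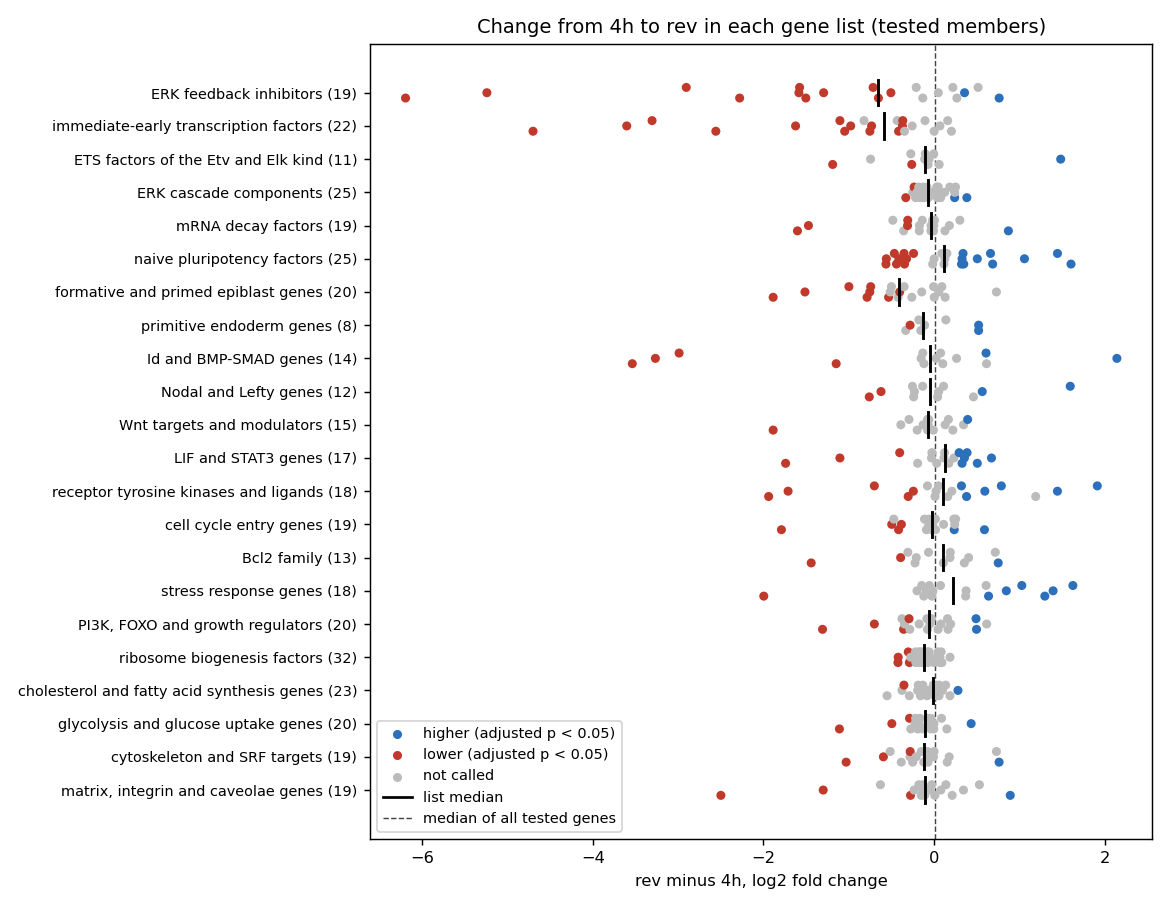
Log2 fold change of rev against 4h for each tested member of 22 gene lists, with the number tested in brackets, blue for genes called higher, red for genes called lower, a black bar at the list median and a dashed line at the median of all tested genes. The feedback and immediate-early lists extend furthest to the left, with medians of -0.65 and -0.58, and the naive pluripotency list has 10 genes called higher and 9 called lower.

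Of 11 tested ETS factors, 2 (18.2%) were lower and 1 (9.09%) higher, against 8.43% and 7.93% of all tested genes (median -0.10): Etv4 fell from 49.5 ± 7.48 to 21.5 CPM on average (log2 fold change -1.19, adjusted p 1.83e-09), Etv5 fell by 0.26, and Elf3 rose. Of 19 tested mRNA decay factors 4 (21.1%) were lower and 1 (5.26%) higher (median -0.04). Zfp36l1 and Zfp36l2, which bind AU-rich elements and hasten mRNA decay, fell by 1.601 and 1.47 on the log2 scale, each with an antisense overlap and with no overlap of the groups. Tob1, which recruits the deadenylase complex, rose from 15.1, 15.9, 21.5 and 23.9 CPM to 24.8, 33.01, 40.6 and 41.9 CPM (log2 fold change 0.87, adjusted p 3.67e-06). Of the kinases, adaptors and direct repressors of the relay itself, all 25 were tested, and 2 (8%) were lower and 2 (8%) higher (median -0.07), which is near the 8.43% and 7.93% of all tested genes. Their log2 fold changes lay between -0.33 and 0.39. Erf, an ETS repressor that ERK phosphorylates, was lower (log2 fold change -0.33), a call lost without any of the first 3 rev libraries or without clone 8 replicate 2 of 4h (adjusted p of up to 0.0995). Map2k2, which encodes MEK2, was called higher (0.24), a call lost with 7 of the 8 libraries left out in turn and at -0.18 with library size alone. Cic, a repressor that ERK also controls, was higher under TMM (log2 fold change 0.39, adjusted p 0.00224) and at -0.05 with library size alone.

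Among protein-coding genes with a mean of at least 5 CPM, the largest rises were smaller than the largest falls. Rgma (ENSMUSG00000070509, chromosome 7, 73375509 to 73419899, with an antisense overlap), a BMP co-receptor, read 5.39, 5.61, 8.92 and 10.3 CPM at 4h and 30.1, 30.6, 31.6 and 32.9 CPM in rev. Clone 8 lay above clone 4 at 4h, all 4 rev libraries lay within 30.1 to 32.9 CPM, and the rise was 4.42-fold (adjusted p 8.65e-14). S1pr1, a receptor of sphingosine-1-phosphate, rose from 1.43, 1.87, 2.09 and 2.37 CPM to 7.25, 10.4, 6.63 and 9.92 CPM (log2 fold change 2.13, SE 0.23, adjusted p 1.26e-08). Fgf4 (ENSMUSG00000050917, chromosome 7, 144847367 to 144865243), the FGF ligand that stem cells secrete, rose from 47.6, 48.0, 75.6 and 79.2 CPM to 152, 149, 178 and 187 CPM. Clone 8 was above clone 4 in both groups, and the rise was 2.73-fold (log2 fold change 1.45, SE 0.09, adjusted p 7.09e-15). Its mean of 166 ± 19.1 CPM in rev stood beside 130 ± 12.5 CPM before induction.

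Elf3, an epithelial ETS factor with an antisense overlap, rose from 24.5 ± 7.31 to 65.5 ± 3.20 CPM (log2 fold change 1.49, SE 0.12, adjusted p 1.29e-11). Lefty1, a secreted inhibitor of Nodal, rose from 3.52, 2.92, 3.99 and 4.47 CPM to 10.0, 10.6, 12.1 and 10.8 CPM (log2 fold change 1.598, SE 0.18, adjusted p 7.33e-08). Its groups were well apart, whereas Lefty2 and Nodal were not called. Gadd45b, a growth arrest gene, rose from 5.42 ± 1.17 to 16.8 ± 1.55 CPM (log2 fold change 1.63). Kif5a, a kinesin heavy chain (log2 fold change 1.48), the calcium channel gene Ryr1 (1.34, with antisense overlaps), the transcription factor Nfatc4 (1.34) and the neural splicing regulator Srrm4 (1.29, with an antisense overlap) were among the other large rises. Spata2l (1.82), Pnpla3 (1.35) and Spaca6 (1.22) share exons with neighbours in the annotation, and the reads of those exons could not be assigned.

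**Figure D3:**
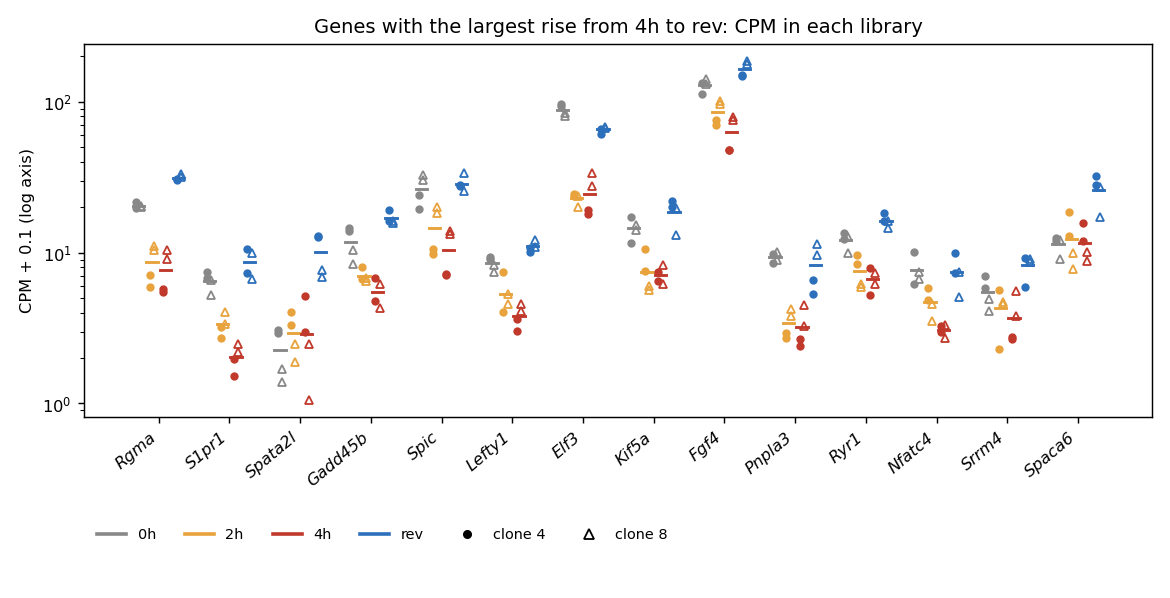
CPM plus 0.1 on a log axis in each library for the 14 protein-coding genes with the largest rise from 4h to rev among those with a mean of at least 5 CPM, with filled circles for clone 4, open triangles for clone 8 and a bar at each group mean. In each gene the 4 rev libraries lie above the 4 libraries of 4h, and Fgf4 has the highest CPM of the genes drawn.

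Naive pluripotency factors changed in both directions. All 25 listed genes were tested, 10 (40%) were higher in rev and 9 (36%) lower, against 7.93% and 8.43% of all tested genes, and the median was 0.12. Of the other genes of this kind, Spic rose most, from 7.15, 7.01, 13.9 and 13.2 CPM to 28.0, 27.4, 33.5 and 25.7 CPM (log2 fold change 1.61, SE 0.14, adjusted p 5.70e-11). Prdm14, a repressor of FGF signalling in the naive state, rose from 13.1 ± 3.73 to 26.8 ± 3.07 CPM (log2 fold change 1.06, SE 0.13, adjusted p 3.48e-07). Klf2 rose from 169 ± 9.39 to 274 ± 19.97 CPM (log2 fold change 0.69), with no overlap of the groups. Nanog, at 180, 184, 311 and 324 CPM at 4h and 294, 310, 452 and 514 CPM in rev, rose within each clone (log2 fold change 0.66, SE 0.07, adjusted p 2.45e-08). The groups of Nanog overlapped, because clone 8 at 4h was above clone 4 in rev.

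Other members of the list, the core factors Pou5f1 and Sox2 among them, fell by small amounts. Pou5f1, which encodes Oct4 and has an antisense overlap, fell from 151 ± 11.3 to 119 ± 10.6 CPM (log2 fold change -0.35, SE 0.08, adjusted p 0.00118), and Sox2 from 226 ± 27.3 to 180 ± 21.4 CPM (log2 fold change -0.32, SE 0.07, adjusted p 0.00182). The call of Sox2 was lost when the share taken by the 8 abundant models was added to the fit. Klf5 fell from 146, 170, 205 and 226 CPM to 116, 131, 124 and 131 CPM (log2 fold change -0.56, adjusted p 8.12e-04). Tdgf1, the Nodal co-receptor Cripto, fell by 0.56, from 81.4 and 82.8 to 52.0 and 52.6 CPM in clone 4 and from 140 and 144 to 99.9 and 107 CPM in clone 8. Sall4 (log2 fold change 0.34) and Tfcp2l1 (0.33) were called higher under TMM and had negative values with library size alone, -0.09 and -0.10. Under that scaling 2 of the 25 were higher and 9 lower, and the list's median was 0.09 above that of all genes. Spic and Fgf4 kept their calls there, while Prdm14, Klf2, Nanog and Klf4 kept a positive sign without passing the test.

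Genes of the formative and primed epiblast, which follow the naive state, were lower where they were called. Of 22 listed genes 20 were tested, and 8 (40%) were lower in rev and 0 higher in the edgeR quasi-likelihood test, against 8.43% and 7.93% of all tested genes, with a median of -0.41. At an unadjusted p under 0.05, 10 were lower and 0 higher, and DESeq2 called 7 lower and 0 higher. T, the mesoderm factor Brachyury, stood at 12.4, 16.8, 5.89 and 5.26 CPM at 4h and at 3.84, 3.91, 1.66 and 1.80 CPM in rev (log2 fold change -1.89, SE 0.24, adjusted p 5.36e-07). Sox4, with an antisense overlap, fell from 7.51 CPM to 2.76 CPM on average (log2 fold change -1.51, adjusted p 3.43e-06). Utf1, an undifferentiated-cell chromatin factor, fell from 47.6, 57.4, 91.0 and 92.9 CPM to 24.1, 28.2, 46.7 and 48.2 CPM (log2 fold change -0.9976, adjusted p 1.42e-08). Foxd3 fell by 0.78 and Pou3f1, which encodes Oct6, by 0.75. Both have overlapping exons of other genes. Otx2 was close to the filter at 2.22 ± 0.824 and 1.74 ± 0.460 CPM and was not called (adjusted p 0.403).

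In the LIF and STAT3 list, which holds the cytokine that sustains stem cells and its targets, 6 of 17 tested genes (35.3%) were higher and 3 (17.6%) lower, against 7.93% and 8.43% of all tested genes (median 0.12). With library size alone 0 were higher and 3 lower. Socs3, a feedback inhibitor of STAT3, rose from 17.7, 18.3, 29.1 and 35.5 CPM to 30.9, 32.1, 50.5 and 39.2 CPM (log2 fold change 0.67, adjusted p 1.92e-05), and Klf4 by a log2 fold change of 0.51. Socs5 fell from 10.9, 7.36, 11.4 and 11.8 CPM to 3.31, 2.17, 2.98 and 3.61 CPM (log2 fold change -1.74, SE 0.20, adjusted p 7.57e-08). In the Nodal and Lefty list 2 of 12 (16.7%) were higher and 2 lower (median -0.04). Beside Lefty1, Smad3 rose (log2 fold change 0.57), and Tgif1, a co-repressor of SMAD proteins, fell from 103 to 60.4 CPM on average (log2 fold change -0.76, adjusted p 2.91e-08). Of 15 tested Wnt genes 1 (6.67%) was lower and 1 higher, shares below those of all tested genes (median -0.07): T was lower and Axin2, a feedback inhibitor with an antisense overlap, higher, and Axin2 had a log2 fold change of 0.40 under TMM and -0.03 with library size alone. Of 8 tested primitive endoderm genes 2 (25.0%) were higher and 1 (12.5%) lower (median -0.13), and Gata6, Sox17 and Pdgfra did not pass the expression filter. Lama1, a laminin chain, rose by a log2 fold change of 0.52 and Sparc, a matrix glycoprotein, fell by 0.28. The call of the endocytic receptor Lrp2 (log2 fold change 0.52) was lost with 5 of the 8 libraries left out in turn (adjusted p of up to 0.0738).

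Receptor tyrosine kinases and their ligands divided into 6 higher (33.3%) and 5 lower (27.8%) of 18 tested, against 7.93% and 8.43% of all tested genes (median 0.11). With library size alone the counts were 2 higher and 5 lower. Epha2 (ENSMUSG00000006445, chromosome 4, 141301240 to 141329384), an ephrin receptor, fell from 269, 265, 198 and 191 CPM to 59.6, 67.5, 79.7 and 76.6 CPM (log2 fold change -1.71, SE 0.11, adjusted p 4.16e-14). Hbegf, an EGF-family ligand, fell from 13.97, 12.2, 15.4 and 14.2 CPM to 3.84, 3.69, 3.81 and 1.80 CPM (log2 fold change -1.94, SE 0.16, adjusted p 6.11e-11). The insulin receptor adaptor Irs2, with an antisense overlap, fell by 0.70. On the higher side, the ephrin Efnb1 rose from 1.54, 1.28, 0.949 and 1.84 CPM to 4.80, 8.47, 2.82 and 5.86 CPM (log2 fold change 1.91, SE 0.29, adjusted p 1.02e-05). Epha4 rose from 53.7 ± 10.5 to 90.8 ± 5.37 CPM (log2 fold change 0.79), and the FGF receptor Fgfr1, with an antisense overlap, from 63.3 ± 3.72 to 95.6 ± 4.47 CPM (log2 fold change 0.60). Both had groups that did not overlap, and neither passed the test with library size alone.

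In the stress list 6 of 18 tested genes (33.3%) were higher and 1 (5.56%) lower, against 7.93% and 8.43% of all tested genes, with a median of 0.22. All 6 higher genes were among the 8 members that had been lower at 2h than at 0h. The share called higher in rev was 26.9% over the whole set lowered at 2h. With library size alone 2 of the 18 were higher and 1 lower. Beside Gadd45b the 6 called higher under TMM included Nupr1, a stress-induced nuclear protein (log2 fold change 1.40, adjusted p 7.11e-04). They also included Chac1, which breaks down glutathione (1.30, adjusted p 0.00795). Trib3, a pseudokinase, was another (1.03, adjusted p 0.0012, with 1 rev library at 10.8 CPM and the others at 3.15 to 5.86 CPM). The calls of Chac1 and Trib3 were lost with library size alone. The call of Ddit4, an inhibitor of mTORC1 (log2 fold change 0.64, adjusted p 0.0276), was lost without clone 4 replicate 1 of rev (adjusted p 0.181) or without either clone 8 library of 4h. Gadd45a, with an antisense overlap, fell from 7.37, 4.79, 2.66 and 2.37 CPM to 1.17, 2.17, 0.663 and 0.451 CPM (log2 fold change -1.996, adjusted p 5.22e-05), opposite to Gadd45b.

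Of 19 tested genes of cell cycle entry, 2 (10.5%) were higher and 4 (21.1%) lower, against 7.93% and 8.43% of all tested genes (median -0.03). The cyclin Ccnd2, with antisense overlaps, fell from 22.5, 25.8, 9.11 and 4.74 CPM to 6.29, 6.30, 2.49 and 4.06 CPM (log2 fold change -1.79, adjusted p 3.02e-08), and the spread between clones made the groups overlap. Cdk6, a partner of the D cyclins with an antisense overlap, fell from 46.0 ± 1.24 to 35.1 ± 2.65 CPM, and Ccne1 from 47.7 ± 3.24 to 37.0 ± 1.94 CPM. Cdkn1a, the inhibitor p21 with an antisense overlap, rose from 52.1, 55.0, 57.1 and 64.7 CPM to 76.5, 83.8, 91.5 and 93.3 CPM (log2 fold change 0.59, adjusted p 1.88e-05). Ccnd1 was at 48.2 ± 1.499 and 46.8 ± 2.85 CPM and was not called. In the Bcl2 family 1 of 13 tested genes (7.69%) was higher and 2 (15.4%) were lower. Pmaip1 (Noxa) fell from 44.2, 31.5, 52.6 and 65.8 CPM to 11.7, 13.3, 23.7 and 27.5 CPM (log2 fold change -1.44, adjusted p 1.04e-08), and Bbc3 (Puma) rose by a log2 fold change of 0.75, while 10 of the 13 tested members were not called (median 0.11). The third called member, Bid, fell by 0.39, a call lost with 2 of the 8 libraries left out in turn (adjusted p of up to 0.0898).

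In the lists of growth and metabolic genes, calls were read against 8.43% lower and 7.93% higher of all tested genes. In the PI3K and FOXO list 4 of 20 tested genes (20%) were lower and 2 (10%) higher (median -0.06). The pseudokinase Trib1 fell (log2 fold change -1.31, adjusted p 5.48e-09). The factor Foxo3 (0.49, adjusted p 7.84e-05) and the lipid phosphatase Inpp5d (0.50, adjusted p 3.36e-04) rose. All 32 ribosome biogenesis factors were tested. Of these 4 (12.5%) were lower and 0 higher in the edgeR quasi-likelihood test (median -0.12). At an unadjusted p under 0.05, 10 were lower and 0 higher, and DESeq2 called 4 lower and 0 higher. Rrn3, an initiation factor of RNA polymerase I, fell by 0.42 (adjusted p 3.86e-05). Of 20 glycolysis genes 3 (15%) were lower and 1 (5%) higher (median -0.10). Pdk1, which restrains pyruvate dehydrogenase, fell from 28.4, 24.3, 30.9 and 33.4 CPM to 12.5, 11.7, 14.9 and 14.9 CPM (log2 fold change -1.11, adjusted p 6.92e-09). Of 23 genes of cholesterol and fatty acid synthesis 1 (4.35%) was lower and 1 (4.35%) higher (median -0.01). The list of cytoskeleton and SRF targets had 3 lower (15.8%) and 1 higher (5.26%) of 19 tested (median -0.12). The focal adhesion protein Zyx was lower (log2 fold change -1.03, adjusted p 3.99e-06, with an antisense overlap). The list of matrix, integrin and caveolae genes had 3 lower (15.8%) and 1 higher (5.26%) of 19 (median -0.11). Lama5, another laminin chain, rose from 91.1, 101, 123 and 114 CPM to 180, 183, 243 and 185 CPM (log2 fold change 0.89, adjusted p 1.18e-09), a call not kept with library size alone, as was also the case for Foxo3 and Inpp5d.

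Longer lists of lineage genes, which include genes that stem cells express, were also examined. Of 5 tested trophectoderm markers 1 (20%) was higher and 2 (40%) lower, against 7.93% and 8.43% of all tested genes. Tfap2c was higher (log2 fold change 0.44), Tead4 lower (-0.61) and Eomes lower (-0.53), the last a call lost with 7 of the 8 libraries left out in turn (adjusted p of up to 0.182). Of 3 tested fibroblast markers Twist1 (33.3% of them) was lower (log2 fold change -0.74) and 0 were higher, with 1 at an unadjusted p under 0.05 and 0 by DESeq2. Of 6 tested neural and mesoderm markers 3 (50%) were higher: the tubulin Tubb3 (0.80), the filament gene Nes (0.32) and Sox1 (0.87), the last a call lost with 6 libraries left out in turn (adjusted p of up to 0.174). With library size alone 0 of the 6 were higher and 1 was lower. The 1 tested blood marker, Cd68, was not called (log2 fold change -0.13, adjusted p 0.766). The part of other cell types in the results was not tested.

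To set these changes beside induction measured in other libraries, rev against 4h was compared with 2h against 0h, a contrast that shares no library with it. At 2h 1390 genes (11.4%) were higher and 1182 (9.68%) lower than at 0h. Of the 1390, 389 were lower in rev, which is 28.0% of the genes raised at 2h, against 8.43% of all tested genes, and 37.8% of the genes lower in rev, against 11.4%. A further 45 (3.24%) were higher in rev and 956 were not called. Of the 1182 lowered at 2h, 318 were higher in rev, 26.9% of the former, against 7.93%, and 32.8% of the latter, against 9.68%, and 21 (1.78%) were lower in rev. With library size alone the 389 and 318 became 143 and 15. The median log2 fold change of rev against 4h was -0.12 for the genes raised and 0.27 for the genes lowered at 2h. Most genes called in rev had not been called at 2h: 606 of the higher (62.5%) and 620 of the lower (60.2%). Of all 12215 tested genes, 9643 had not been called at 2h, a larger share. Among the lower genes not called at 2h were Socs5, Gadd45a, Sox4 and Tdgf1, with 2h log2 fold changes of 0.11, 0.25, 0.23 and 0.17. Their means at 0h were 4.13, 2.18, 1.80 and 74.7 CPM, and at 4h 10.4, 4.30, 7.51 and 112 CPM. In rev they were 3.02, 1.12, 2.76 and 77.8 CPM. Whether such genes were induced after 2h was not tested.

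**Figure D4:**
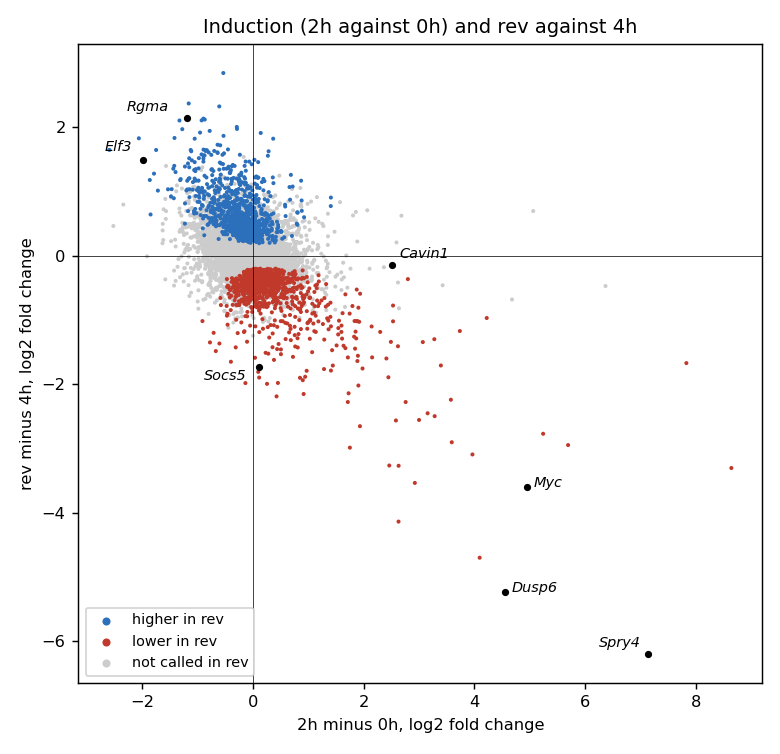
Log2 fold change of 2h against 0h on the horizontal axis and of rev against 4h on the vertical axis for each tested gene, coloured by the call in rev. Spry4, Dusp6 and Myc lie at the lower right, Elf3 and Rgma at the upper left, Cavin1 near the horizontal line at 0 and Socs5 near the vertical line at 0.

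Many genes that had changed at 2h were not called in rev. A total of 5521 genes were not called and had a 95% interval of rev minus 4h inside 0.5 on the log2 scale in either direction, which is 45.2% of all tested genes. Of the genes raised at 2h, 793 (57.1%) met this description, and of those lowered at 2h, 327 (27.7%). Cavin1 (ENSMUSG00000004044), a coat protein of caveolae, had 64.3, 54.7, 39.3 and 31.3 CPM at 4h and 49.4, 50.2, 32.8 and 43.3 CPM in rev, after a 2h log2 fold change of 2.52. The groups overlapped, with an interval of the log2 fold change from -0.37 to 0.07. Zic2, a zinc finger factor of the epiblast, had 64.9 and 55.6 CPM on average (log2 fold change -0.26, adjusted p 0.0793, interval -0.47 to -0.05), and was called lower within clone 8 (log2 fold change -0.50, adjusted p 0.0484). Zfp296, a zinc finger protein of stem cells with an antisense overlap, had 52.6 and 52.6 CPM (log2 fold change -0.01). Ccn2, a secreted matricellular protein with an antisense overlap, had 29.2 ± 6.51 and 30.0 ± 3.06 CPM (log2 fold change 0.00). Its mean had been 19.5 CPM at 0h and 65.6 CPM at 2h, so most of its rise was already gone at 4h. Cavin1 by contrast averaged 23.8 CPM at 2h and 47.4 CPM at 4h. Fam189a2 was the other of the 5 most induced genes of this kind, with a log2 fold change of -0.11. On the repressed side the 5 genes with the largest fall at 2h were Zfp870, Ggta1, Oxnad1, Ngrn and Dus2, whose log2 fold changes in rev lay between -0.06 and 0.21. These intervals still allow changes of up to 0.5 on the log2 scale.

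Within clone 4, 582 genes (4.76%) were higher and 667 (5.46%) lower, and within clone 8, 294 (2.41%) and 342 (2.8%). Of the 294 higher and 342 lower in clone 8, 168 and 211 were called alike in clone 4, against 4.76% and 5.46% of all tested genes. In the edgeR quasi-likelihood test 0 were called in opposite directions, with 8 in opposite directions at an unadjusted p under 0.05 in each clone. Across all tested genes the changes in the clones had r = 0.545, as a description over genes, which are not independent replicates. The difference in response between clones had an unadjusted p under 0.05 in 737 of the 12215 tested genes. With no difference in any gene, a share of about 0.05 would have such a p. After adjustment the difference passed the threshold for 1 gene (0.00819%). That gene was Epha2, which fell by 2.08 on the log2 scale in clone 4 and by 1.31 in clone 8 (difference 0.77, adjusted p 0.044 in the edgeR quasi-likelihood test). The difference ranged from 0.674 to 0.852 with each of the 8 libraries left out, and its adjusted p from 0.0431 to 0.732, so that the call was kept with 1 of the 8. The number of genes with such a difference was 6 without clone 4 replicate 2 of 4h, 4 without clone 8 replicate 1 of rev and 0 with any other library left out. Mrpl2, a mitochondrial ribosomal protein gene, had the next smallest p, with log2 fold changes of -0.42 in clone 4 and 0.73 in clone 8, a difference that did not pass (adjusted p 0.219). The imprinted gene Peg10 came after it, with -1.57 in clone 4 and -0.52 in clone 8 (adjusted p 0.219).

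**Figure D5:**
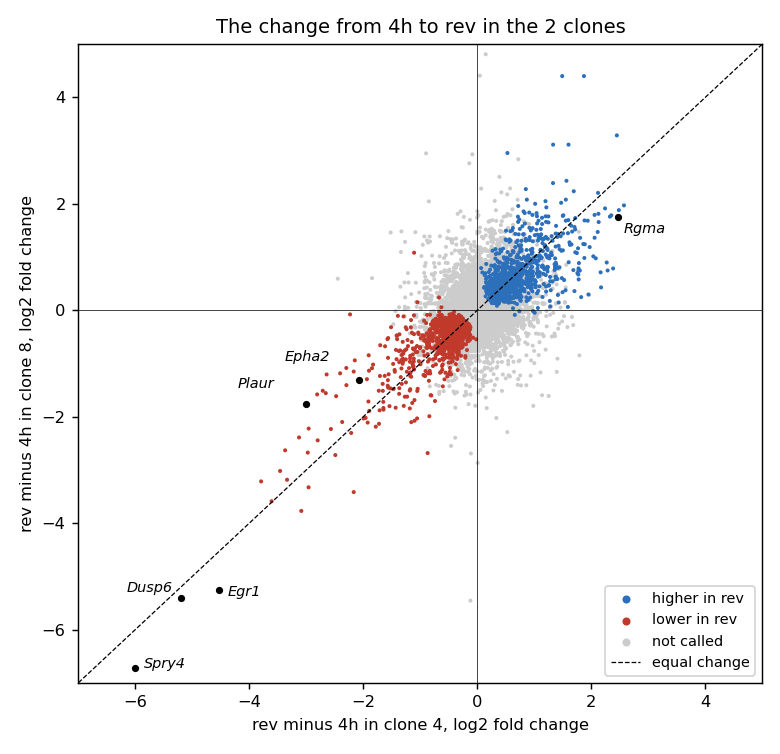
Log2 fold change of rev against 4h in clone 4 on the horizontal axis and in clone 8 on the vertical axis for each tested gene, with genes called higher in blue and lower in red and a dashed line of equal change. Dusp6 lies near that line at the lower left, Spry4 and Egr1 lie below it, and Epha2 and Plaur lie above it.

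Of 560 tested long non-coding genes 78 (13.9%) were higher and 23 (4.11%) lower, against 868 (7.64%) and 989 (8.70%) of 11363 protein-coding genes and 12 (5.56%) and 16 (7.41%) of 216 genes of other classes, pseudogenes among them. Of 76 small RNA and ribosomal RNA genes 11 (14.5%) were higher and 2 (2.63%) lower. These shares are a description without a test. Chosen after their values were seen, 2900052L18Rik rose from 4.62, 5.96, 4.56 and 4.21 CPM to 12.4, 11.3, 10.8 and 9.02 CPM (log2 fold change 1.19, adjusted p 2.28e-06), and 5031425E22Rik rose by a log2 fold change of 0.74. Of the most abundant gene models, Mir6236, which lies among the 8 models with the most counts, had 12510, 28460, 62390 and 83270 CPM at 4h and 42890, 73240, 106900 and 288900 CPM in rev. Its call (log2 fold change 1.46, adjusted p 0.00317) was lost without clone 8 replicate 2 of rev (log2 fold change 0.87, adjusted p 0.0544). Lars2, whose model is another of the 8, and the small RNA model Gm25732 lost their calls without the same library (adjusted p 0.487 and 0.452), and after adjustment for the share taken by these 8 models their values were -0.35 and -0.74. The RNA component Rmrp was lower (log2 fold change -1.02), a call lost without 4h clone 4 replicate 1, which held 167 CPM against 51.0 to 77.7 in the others (log2 fold change -0.50, adjusted p 0.132). Among protein-coding genes with the highest CPM, the mitochondrial mt-Nd6 was higher (log2 fold change 0.53, with an antisense overlap), and the chaperone Hspa8 (-0.43) and the ribosome scaffold Rack1 (-0.41), both with exons shared with small RNA genes or other models, were lower.

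Gene structure was described without a test. The 121 protein-coding genes that fell at least 2-fold had a median span of 13219 bases and a median of 4 exons in the transcript with the most exons, and 36.4% had at most 3 exons. The 140 that rose as much had a median span of 14178 bases and 7 exons, with 25.0% at 3 or fewer. All 11363 tested protein-coding genes had a median span of 24909 bases and 10 exons, with 10.2% at 3 or fewer. Both sets also had lower counts, with a median CPM of 6.45 and 2.49 against 13.2 in all, and whether this contributes to the difference in structure was not tested.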

How the data were processed

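The 16 libraries, 4 groups of 4 cultures, were made from total RNA after removal of ribosomal RNA. The authors deposited raw counts per gene for all 16 libraries in 1 table. Per the submitters' processing notes, bcl2fastq 2.19.1, STAR 2.5.3a and the genome build mm10 were used. The counting tool, the annotation and the strand setting are not given in the sources used here. Of 52636 gene identifiers, 52489 were matched to the GENCODE annotation of GRCm38.

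All 16 libraries were fitted together in edgeR 4.0.16 (R 4.3.3, limma 3.58.1) with group and clone as terms, TMM scaling and the filterByExpr filter, and rev was tested against 4h with the quasi-likelihood test, two-sided, at 0.05 after the Benjamini-Hochberg adjustment of all 12215 p-values. The standard error (SE) of a log2 fold change was taken from its F statistic. Within-clone changes and their difference came from a fit with a mean for each group and clone. The scripts were tested on simulated counts. Depth limits precision: 3 counts correspond to 0.320 to 0.789 CPM in 7 of the 8 libraries and to 1.35 CPM in clone 8 replicate 2 of rev. These limits cover counting error only, and p-values measure the spread between these cultures, which may be technical.

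Named genes were the 14 protein-coding genes with the largest change in each direction that were called, averaged 5 CPM or more and had 1 direction in all 4 same-numbered differences, the 3 most abundant called genes and 2 non-coding models in each direction, 2 called members in each direction of each of 26 gene lists, the 3 genes with the smallest p for the clone difference, and 5 genes in each direction that were called at 2h and not called in rev with an interval inside 0.5. Further members were named after their values were seen. The result of 1 list member is not reported here. The lists and rules were chosen with earlier results of these data known. Overlaps of exons with another gene, on either strand, are named in the text for most genes. Tiparp, Tfcp2l1, Rmrp, Bid, Eomes, Sox1, Zfp870, Oxnad1, Dus2, Nab2, Jun, Sall4, Otx2, Ccnd1, Ccne2, Srebf1 and Hk1 have one too. Alternatives were RLE scaling, library size alone, other filters, no clone term, a replicate block, only the compared groups, a 2-fold limit, DESeq2 1.42.0 and leaving out each library, with 2 added after the data were seen.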

Additional observations from a re-analysis of the deposited data

Results flagged for a closer look

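A total of 312 sets of 4 libraries were looked at, for the named genes and for the total counts, abundant-model share and TMM factor of the libraries. Of these, 14 (4.49%) had 1 library far from the others. Chance gives about 1 in 20 for 4 alike libraries, but each set held 2 clones, so that rate is only a guide. At 4h clone 8 replicate 2 stood apart in 7 of the 14. It held 6.84 CPM of Smad6 where the others held 3.41 to 3.99, 67.1 CPM of Foxo3 against 47.9 to 48.6, 91.0 CPM of Ier2 against 85.1 to 85.6, 18.7 CPM of Prdm14 against 10.8 to 11.6, 256 CPM of Sall4 against 212 to 219, and 3.68 CPM of Trib3 against 3.15 to 3.23. It was the lowest for Lrp2, at 5.79 CPM against 7.15 to 7.24. Ccn1 had 6.60 CPM in clone 4 replicate 1 of 4h and 7.79 to 7.94 CPM in the others.

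In rev, clone 8 replicate 2 held 101 CPM of Erf against 72.1 to 74.9 and 1.80 CPM of Hbegf against 3.69 to 3.84. Clone 4 replicate 2 held 932 CPM of mt-Nd6 against 776 to 794 and 89.0 CPM of Cdc25a against 80.9 to 81.2. Gadd45b stood at 19.1 CPM in clone 4 replicate 1 against 15.7 to 16.2, and Lama5 at 243 CPM in clone 8 replicate 1 against 180 to 185.

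The response of Epha2 differed between the clones by 0.77 on the log2 scale, the one gene that passed the test of that difference.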

How the results depend on the processing

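With library size alone, 57 genes were higher and 1671 lower in rev, 0 differed between clones, 143 genes raised at 2h were lower in rev and 15 lowered at 2h were higher, against 969, 1030, 1, 389 and 318 under TMM. All 1030 lower genes were called again. Values that changed sign there were Tfcp2l1 -0.10, Lrig1 -0.071, Cic -0.048, Map2k2 -0.18, Axin2 -0.031, Cdc25a -0.19, Srebf1 -0.15, Sall4 -0.089, Mrpl2 -0.37, Ccn2 -0.42, Zfp870 -0.20, Ngrn -0.38, Dus2 -0.31 and Dusp7 -0.15. Calls lost there with the sign kept were those of Lars2, mt-Nd6, Dusp14, Tob1, Lama1, Lrp2, Smad6, Smad3, Socs3, Klf4, Cdkn1a, Bbc3, Inpp5d, Foxo3, Hk1, Lmna, Lama5, Tfap2c, Sox1, Tubb3, Nanog, Klf2, Prdm14, Fgfr1, Epha4, Chac1, Trib3, Ddit4 and 5031425E22Rik. Without the clone term the counts were 418, 463, 171 and 109. There 39 of the 135 named calls were lost, those of Nanog, T, Utf1, Tdgf1, Klf4, Socs3, Nupr1 and Tubb3 among them. With a 2-fold limit the counts were 188, 140, 72 and 42 with 0 for the clone difference. Without a filter 16 genes differed between clones. With the share of the 8 abundant models as a covariate, chosen after seeing the data, 577 were higher, 652 lower and 0 differed between clones, and Lars2 (-0.35), Gm25732 (-0.74), Fam189a2 (0.065) and Ggta1 (0.011) changed sign. Calls lost there with the sign kept were those of mt-Nd6, Mir6236, Rmrp, Etv5, Cic, Map2k2, Lrp2, Smad6, Axin2, Cdc25a, Ccne2, S100a6, Tfap2c, Eomes, Nab2, Sall4 and Sox2. Ccn2, near 0, was at -0.0060 under RLE, -0.010 without a filter, -6.39e-05 with a 1 CPM filter, -0.0037 with the block and -0.0094 with the covariate. DESeq2 called 761 higher and 905 lower. The cause of these shifts was not tested.

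With each library left out, higher genes numbered 644 to 919, lower 737 to 1021, clone differences 0 to 6, and the 2h overlaps 288 to 379 and 217 to 321. Ranges for values that changed sign were -0.050 to 0.099 for Ccn2, -0.085 to 0.091 for Zfp296, -0.057 to 0.18 for Ngrn, -0.48 to 0.037 for Cd68, -0.11 to 0.21 for Mrpl2 and -0.12 to 0.10 for Oxnad1. Of the 135 named calls 114 were kept with each library left out. With the replicate number as a block, 937 genes were higher and 1012 lower. Same-numbered replicate differences had r = 0.119 in clone 4 and 0.0646 in clone 8 over 4498 genes. The labels do not say that a number marks a shared day, so the main test did not take the numbers as pairs. The rule for the largest changes among named genes did use same-numbered differences.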
